A study of Mus musculus with 6 samples.

Results

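Proliferation genes, 19 that act in DNA replication and 22 that act in mitosis, were followed in brain microglia of mice with experimental autoimmune encephalomyelitis (EAE), an immune attack on myelin used as a model of multiple sclerosis. The genes were a given list of 41 symbols of known cell cycle genes, proposed with earlier results of these data in view, and matched to the platform annotation. Each of the 39 that matched had a single probe set among 19505 named genes. Mcm7 and Ccnb1 were not analysed here, which left 18 replication and 21 mitosis genes. All mice were female C57BL/6, received 100 µg recombinant MOG in 100 µL IFA under the skin and 300 ng pertussis toxin into a vein on that day and 48 h later, and were sampled at the peak of disease. One group of 3 samples is labelled control and the other, also of 3, carries a conditional knock-out (CKO) in B cells, which the title places in GM-CSF-expressing B cells. The sources used here do not give the deleted gene, the driver of the deletion, the controls' alleles, the age of the mice or the way the cells were isolated.

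Cells commit to division when E2F factors, freed from the retinoblastoma protein, switch on the genes of DNA synthesis. The MCM helicase is loaded on origins with Cdc6 and Cdt1 in G1 and is activated in S phase by Cdc45 and the GINS complex. Genes of mitosis are switched on later, in G2, through a promoter element called CHR, often next to boxes bound by the factor NF-Y, by complexes that hold MuvB proteins with B-Myb or FoxM1. Microglia renew themselves slowly in the healthy adult brain and divide in EAE, and T cells, monocyte progenitors and granulocyte precursors that enter or contaminate an isolate can divide too.

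Promoter sequences, which the choice of the genes did not use, held different motifs in each class; the shares are a description with no test. RefSeq windows (build GRCm38.p6) from 250 bases before to 50 after an annotated start were used for 31 of the 39 genes, in 33 windows. No window was used for Aurkb, Ccna2, Ccne2, Gins1, Gins2, Kif20a, Mcm4 and Tpx2. Searches covered both strands for an E2F motif (TTTCCCGC, TTTCGCGC, TTTGCCGC or TTTGGCGC), the CHR (TTTGAA or TTCGAA) and the NF-Y box (CCAAT), and no words of different motifs overlapped in these windows. An E2F word was present in 40% of the 15 replication windows, 5.56% of the 18 mitosis windows and 2.26% of all 32851 windows. The CHR was present in 20% of replication windows, 83.3% of mitosis windows and 19.2% of all windows. An NF-Y box was in 66.7%, 88.9% and 37.4% of them. CHR and NF-Y box occurred together in 83.3% of mitosis windows against 7.52% of all windows. By gene, 6 of 14 replication genes had an E2F word and 14 of 17 mitosis genes a CHR. The E2f1 window held 0 E2F words. For E2f2, the window from 136172024 held an E2F word and that from 136180532 a CHR. Whether each annotated start is the main start of its gene was not checked, and a start inside a gene would miss the promoter. A match describes these letters, not binding.

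Windows are shown for replication genes with E2F words and for mitosis genes among those with the largest differences between groups. Capitals mark the E2F words and NF-Y boxes in the first pair and the CHR and NF-Y boxes in the other four, on either strand.
Mcm5 (chr8:75109259-75109558, plus strand): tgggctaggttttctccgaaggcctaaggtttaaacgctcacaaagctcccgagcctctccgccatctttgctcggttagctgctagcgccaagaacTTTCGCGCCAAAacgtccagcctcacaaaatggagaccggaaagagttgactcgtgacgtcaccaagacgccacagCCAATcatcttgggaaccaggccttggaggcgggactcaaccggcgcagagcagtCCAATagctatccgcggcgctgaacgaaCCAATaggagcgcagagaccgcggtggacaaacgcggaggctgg
Mcm3 (chr1:20820263-20820562, minus strand): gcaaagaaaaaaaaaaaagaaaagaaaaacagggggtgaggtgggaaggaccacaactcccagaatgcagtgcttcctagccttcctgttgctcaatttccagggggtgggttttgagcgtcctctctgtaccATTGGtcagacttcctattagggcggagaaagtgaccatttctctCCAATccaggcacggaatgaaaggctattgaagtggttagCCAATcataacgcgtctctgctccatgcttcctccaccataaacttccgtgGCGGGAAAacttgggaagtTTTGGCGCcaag
Bub1b (chr2:118597961-118598260, plus strand): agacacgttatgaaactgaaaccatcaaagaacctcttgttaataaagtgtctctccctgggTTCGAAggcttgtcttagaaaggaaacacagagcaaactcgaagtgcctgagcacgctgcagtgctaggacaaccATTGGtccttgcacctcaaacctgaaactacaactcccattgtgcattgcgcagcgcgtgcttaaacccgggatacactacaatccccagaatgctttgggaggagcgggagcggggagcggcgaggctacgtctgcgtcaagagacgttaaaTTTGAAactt
Plk1 (chr7:122159185-122159484, plus strand): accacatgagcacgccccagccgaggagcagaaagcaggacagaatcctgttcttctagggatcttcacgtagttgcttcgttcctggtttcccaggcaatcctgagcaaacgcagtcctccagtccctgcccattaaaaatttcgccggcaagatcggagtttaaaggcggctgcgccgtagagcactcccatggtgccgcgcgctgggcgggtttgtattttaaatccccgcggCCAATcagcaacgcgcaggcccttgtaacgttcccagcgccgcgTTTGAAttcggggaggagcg
Ube2c (chr2:164769679-164769978, plus strand): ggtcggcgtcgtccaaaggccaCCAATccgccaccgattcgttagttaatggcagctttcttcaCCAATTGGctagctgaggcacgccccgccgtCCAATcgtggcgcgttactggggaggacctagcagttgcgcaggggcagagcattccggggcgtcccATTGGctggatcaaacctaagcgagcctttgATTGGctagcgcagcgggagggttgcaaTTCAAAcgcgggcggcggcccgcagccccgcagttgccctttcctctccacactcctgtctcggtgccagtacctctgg
Mki67 (chr7:135716330-135716629, minus strand): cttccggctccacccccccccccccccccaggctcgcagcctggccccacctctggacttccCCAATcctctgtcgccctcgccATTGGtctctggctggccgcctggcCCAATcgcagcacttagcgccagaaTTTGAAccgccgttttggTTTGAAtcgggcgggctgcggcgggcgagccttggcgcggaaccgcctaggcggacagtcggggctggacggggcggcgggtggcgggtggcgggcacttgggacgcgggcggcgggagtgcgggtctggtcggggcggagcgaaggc
In Mcm5 an E2F word on each strand overlapped its partner, with first bases at -153 and -149 relative to the annotated start. In Mcm3 both E2F words lay after the start, at 19 and 38. The CHR of Plk1 began at 30 and that of Ube2c at -29. Mki67 had a pair, at -116 and -98, and Bub1b one at -188 and one at 40. Over all matches in mitosis windows the median position was -21 for the CHR and -80 for the NF-Y box.

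**Figure D1:**
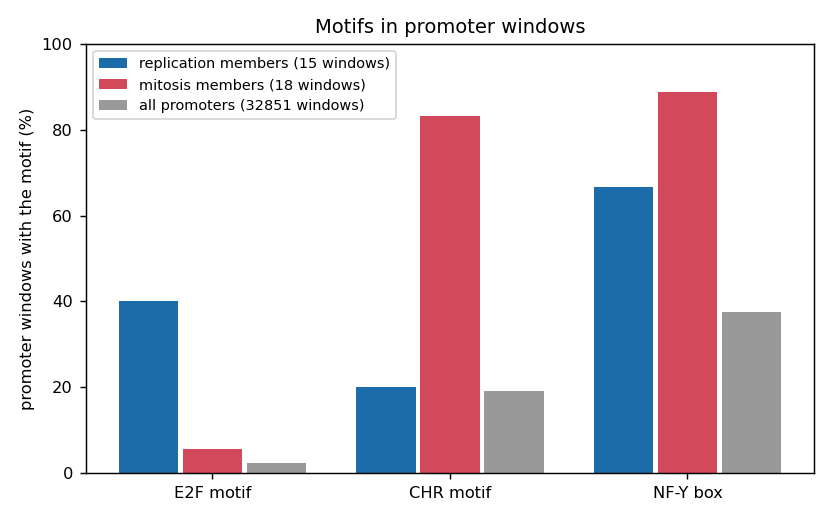
Share of promoter windows (vertical axis, %) that held the E2F motif, the CHR or the NF-Y box, for 15 windows of replication genes, 18 of mitosis genes and all 32851 windows. E2F words were in 40% of replication windows and the CHR in 83.3% of mitosis windows, against 2.26% and 19.2% of all windows.

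Each array gave 22206 log2 values, on which a step of 1 is a 2-fold difference; levels are compared only within a gene. Array medians lay between 7.13 and 7.34. Values were spread less widely on CKO replicates 2 and 3 (interquartile ranges 3.08 and 3.11) than on the remaining arrays (3.66 to 4.0). Astrocyte markers, led by Aldoc and Slc1a2, deviated from their 6-array mean by 1.27 on control replicate 2 and 2.84 on CKO replicate 1, and by -1.45 to -0.86 elsewhere. Of the microglial markers listed, 9 of 10 were measured, and P2ry12, a purine receptor of microglia, was between 18.76 and 19.72 on every array. Ngp, a granule gene of neutrophils, was between 19.23 and 19.67, and the T cell marker Cd3e between 6.48 and 12.55. P2ry12 and Ngp lay near the array maxima of 19.7 to 19.93, where a difference may not show. Whether each replicate is its own animal is not stated in the labels. The p-values therefore speak only of the spread among these arrays, which may be technical, and 3 per group limit the precision.

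Proliferation genes had lower mean values in CKO for 36 of 39 genes, but no single gene passed the test. The median log2 fold change was -0.52 for replication genes and -0.42 for mitosis genes, against 0.05 over all named genes, of which 45.7% were lower in CKO. With limma's test and p-values adjusted (Benjamini-Hochberg) across the whole table, 0 of 39 had an adjusted p under 0.05 (background 0.00901% of probe sets, both of those called lower in CKO), and the smallest adjusted p was 0.211. At an unadjusted p under 0.05, 5 of 39 were lower and 0 higher, where 6.47% of named genes were lower and 3.29% higher. In 3 genes, E2f1, Mcm4 and Pcna, all CKO arrays lay below all controls, and in 0 above; the background was 8.76% of named genes below and 5.77% above. The members' share without overlap was thus near the background. In bulk samples, fewer dividing cells and less RNA per cell cannot be told apart.

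**Figure D2:**
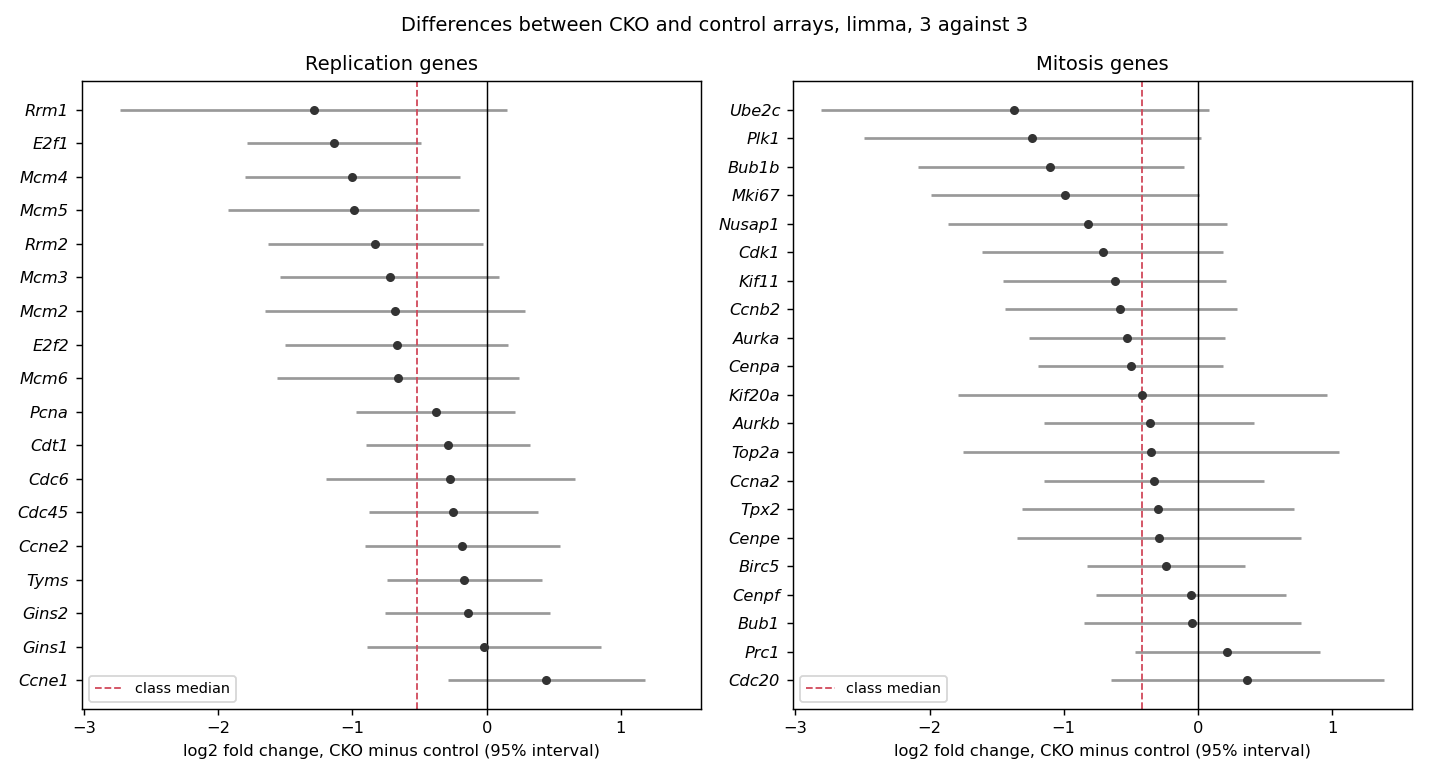
Log2 fold change, CKO minus control, with its 95% interval from limma, for 18 replication genes (left) and 21 mitosis genes (right), 3 arrays per group; the dashed line is the class median (-0.52 and -0.42). Intervals of 4 replication genes and of Bub1b alone among mitosis genes lie below 0.

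The E2F factors and cyclin E, which open S phase, had fold changes from -1.14 to 0.44. E2f1, which switches on S phase genes, stood at 5.91, 6.04 and 6.57 in controls (replicates in numerical order here and below) and at 4.99, 5.12 and 4.99 in CKO. The groups did not overlap, and the log2 fold change was -1.14 (SE 0.28, adjusted p = 0.211). E2f1 was dim, with every value below the array medians of 7.13 to 7.34. E2f2, a related activator, averaged 8.04 ± 0.58 (SD, n = 3) among controls and 7.37 ± 0.35 among CKO arrays, a limma adjusted p of 0.563. Cyclin E starts S phase with Cdk2, and its genes did not follow E2f1. Ccne1 was at 7.65, 7.13 and 7.28 in controls and at 7.28, 8.07 and 8.04 in CKO. It was the only replication gene with a higher CKO mean (0.44, SE 0.32, adjusted p = 0.643), high on CKO replicates 2 and 3 alone. Ccne2 differed by -0.18, with a 95% interval from -0.91 to 0.55.

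The 5 measured subunits of the MCM helicase, which unwinds DNA at the fork, all had lower CKO means, by 0.66 to 1.0 (median -0.72). Mcm4 was at 8.43, 8.87 and 8.86 in controls and at 8.25, 7.8 and 7.11 in CKO (log2 fold change -1.0, SE 0.35, adjusted p = 0.394). Every control lay above every CKO array, although CKO replicate 1 was close to control replicate 1. Mcm5 was at 7.9, 6.78 and 8.33 in controls and at 6.83, 6.73 and 6.47 in CKO (-0.99, SE 0.41, adjusted p = 0.484). Control replicate 2 lay among the CKO arrays here. Mcm3 was at 9.34, 8.7 and 9.13 against 8.99, 8.01 and 8.0 (-0.72, SE 0.36, adjusted p = 0.539), with CKO replicate 1 inside the control range. Mcm2 varied widely among controls, at 8.65, 7.3 and 8.67, and was at 7.61, 7.86 and 7.11 in CKO (-0.68, SE 0.43, adjusted p = 0.605). Mcm6 differed by -0.66 (adjusted p = 0.595).

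Genes that load and fire origins gave no unadjusted p under 0.05. Cdc6, Cdt1, Cdc45, Gins1 and Gins2 had fold changes from -0.29 to -0.02, with adjusted p from 0.71 to 0.989. The interval of Cdt1, the licensing factor, ran from -0.90 to 0.32 and that of Cdc45 from -0.88 to 0.38. Both overlapped the interval of Mcm4, from -1.8 to -0.2, and no test set these genes against Mcm4. For Cdc6 and Gins1 the intervals reached -1.20 and -0.89.

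Ribonucleotide reductase makes the building blocks of DNA, and both of its genes were low on the same CKO arrays. Rrm1, the large subunit, was at 10.55, 9.01 and 10.44 in controls and at 10.06, 7.86 and 8.22 in CKO (-1.29, SE 0.63, adjusted p = 0.537). Rrm2, the small subunit made in S phase, was at 8.57, 8.5 and 8.79 in controls and at 8.5, 7.39 and 7.48 in CKO (-0.83, SE 0.35, adjusted p = 0.495). In both genes CKO replicate 1 was at the level of a control and CKO replicates 2 and 3 lay below every control. Pcna, the sliding clamp, was at 14.42, 14.26 and 14.21 in controls and at 13.87, 14.1 and 13.77 in CKO. Its groups did not overlap, and the log2 fold change was -0.38 (SE 0.26, adjusted p = 0.626). It depended on the scaling, at -0.12 after quantile normalization and after cyclic loess. Tyms, which makes thymidylate, differed by -0.17, with an interval from -0.74 to 0.41.

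**Figure D3:**
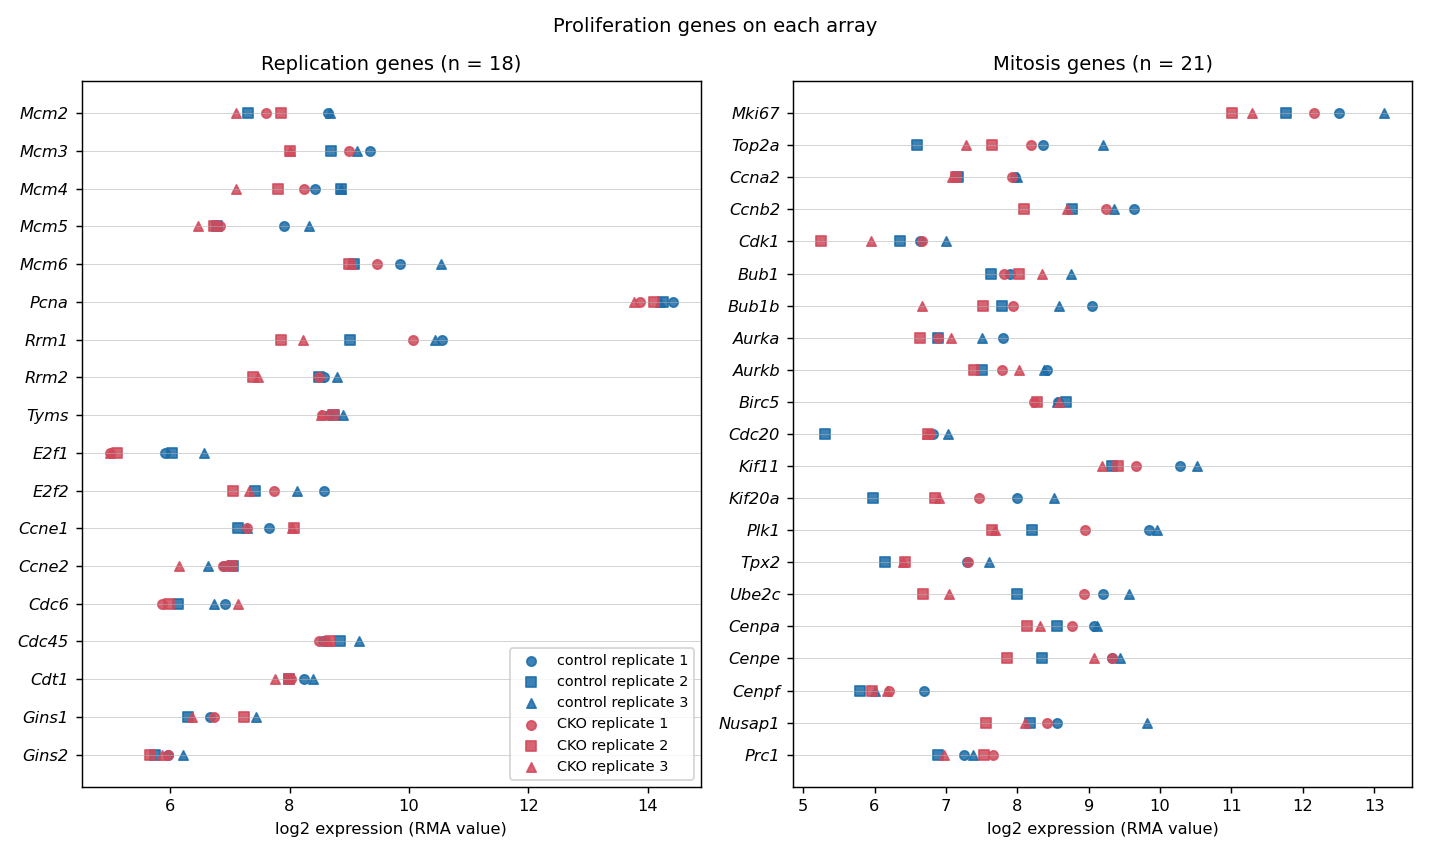
Log2 expression (horizontal axis) of each measured replication gene (left) and mitosis gene (right) on the 6 arrays; blue marks controls, red marks CKO, and the symbol gives the replicate number. Control replicate 2 (blue squares) was the lowest control for 20 of 21 mitosis genes and 12 of 18 replication genes.

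Mitosis genes had lower CKO means in 19 of 21 cases, and the controls disagreed among themselves. Mki67, the proliferation marker Ki-67 that coats mitotic chromosomes, was at 12.51, 11.77 and 13.14 in controls and at 12.16, 11.01 and 11.29 in CKO (-0.99, SE 0.44, adjusted p = 0.509). CKO replicate 1 was above control replicate 2 and the other CKO arrays lay below every control. Top2a, the topoisomerase that untangles replicated DNA, was at 8.36, 6.59 and 9.2 in controls and at 8.19, 7.64 and 7.28 in CKO. Its control SD of 1.33 exceeded the difference (-0.35, SE 0.61, adjusted p = 0.853), and the sign turned to 0.23 without control replicate 3.

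Mitotic kinases held the mitosis gene with the smallest p. Bub1b, which encodes the checkpoint kinase BubR1, was at 9.04, 7.79 and 8.59 in controls and at 7.94, 7.52 and 6.67 in CKO (-1.10, SE 0.44, adjusted p = 0.464). Plk1, which drives entry into mitosis and spindle assembly, was at 9.84, 8.2 and 9.96 in controls and at 8.95, 7.65 and 7.69 in CKO (-1.24, SE 0.55, adjusted p = 0.509). Control replicate 2 lay within the range of the CKO arrays in both. Aurka and Aurkb, the Aurora kinases, differed by -0.53 and -0.36, and Bub1, the partner of BubR1 at kinetochores, by -0.04 with an interval from -0.85 to 0.77.

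Cdk1, the kinase of mitotic entry, was at 6.64, 6.36 and 7.0 in controls and at 6.67, 5.25 and 5.95 in CKO (-0.71, SE 0.40, adjusted p = 0.571). Its cyclins Ccnb2 and Ccna2 differed by -0.58 and -0.33. The anaphase-promoting complex destroys these cyclins, and its members here went apart. Ube2c, its ubiquitin-conjugating enzyme, was at 9.2, 7.99 and 9.56 in controls and at 8.93, 6.68 and 7.04 in CKO, the most negative fold change of the 39 genes (-1.37, SE 0.63, adjusted p = 0.519). Cdc20, its activator, was at 6.82, 5.31 and 7.03 in controls and at 6.78, 6.75 and 6.73 in CKO (0.37, SE 0.45, adjusted p = 0.781). Without control replicate 2 the value was -0.17, and other scalings gave 0.16 to 0.24.

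Spindle and kinetochore genes had fold changes from -0.82 to 0.22. Nusap1, which binds spindle microtubules, was at 8.55, 8.18 and 9.82 in controls and at 8.41, 7.56 and 8.11 in CKO (-0.82, SE 0.45, adjusted p = 0.57). Prc1, which bundles microtubules of the midzone, was at 7.25, 6.89 and 7.38 in controls and at 7.66, 7.54 and 6.98 in CKO (0.22, SE 0.30, adjusted p = 0.808), with 0.07 to 0.14 under other scalings. The motor Kif11 differed by -0.62, Kif20a by -0.42 and the spindle factor Tpx2 by -0.30. Cenpa, the histone variant of centromeres, differed by -0.50, and the kinetochore proteins Cenpe and Cenpf by -0.29 and -0.05. Birc5 (survivin), of the chromosomal passenger complex, differed by -0.24.

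Replication and mitosis genes had similar group medians, and the arrays were ordered differently in each class. Replication genes deviated from their 6-array means by an average of 0.35, -0.08 and 0.50 in controls and -0.07, -0.29 and -0.41 in CKO. For mitosis genes it was 0.48, -0.44 and 0.68, and 0.16, -0.53 and -0.35. Mitosis minus replication was thus -0.35 on control replicate 2, -0.25 on CKO replicate 2 and 0.06 to 0.23 on the other arrays, with group means of -0.01 ± 0.29 (SD, n = 3) in controls and 0.01 ± 0.24 in CKO. The spread within each group exceeded the difference between them.

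Control replicate 2 was the lowest control for 20 of 21 mitosis genes (95.2%) and 12 of 18 replication genes (66.7%), against 37% of all named genes. It was also below CKO replicate 1 for 90.5% of mitosis genes and 55.6% of replication genes, against 49.2% of named genes. CKO replicate 1 lay within the control range for 90.5% of mitosis and 66.7% of replication genes, against 42.9% of named genes. The median control SD was 0.6 for mitosis genes, 0.32 for replication genes and 0.3 for named genes. These counts describe 6 arrays that share their values across genes, and no test of the classes against each other was made.

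**Figure D4:**
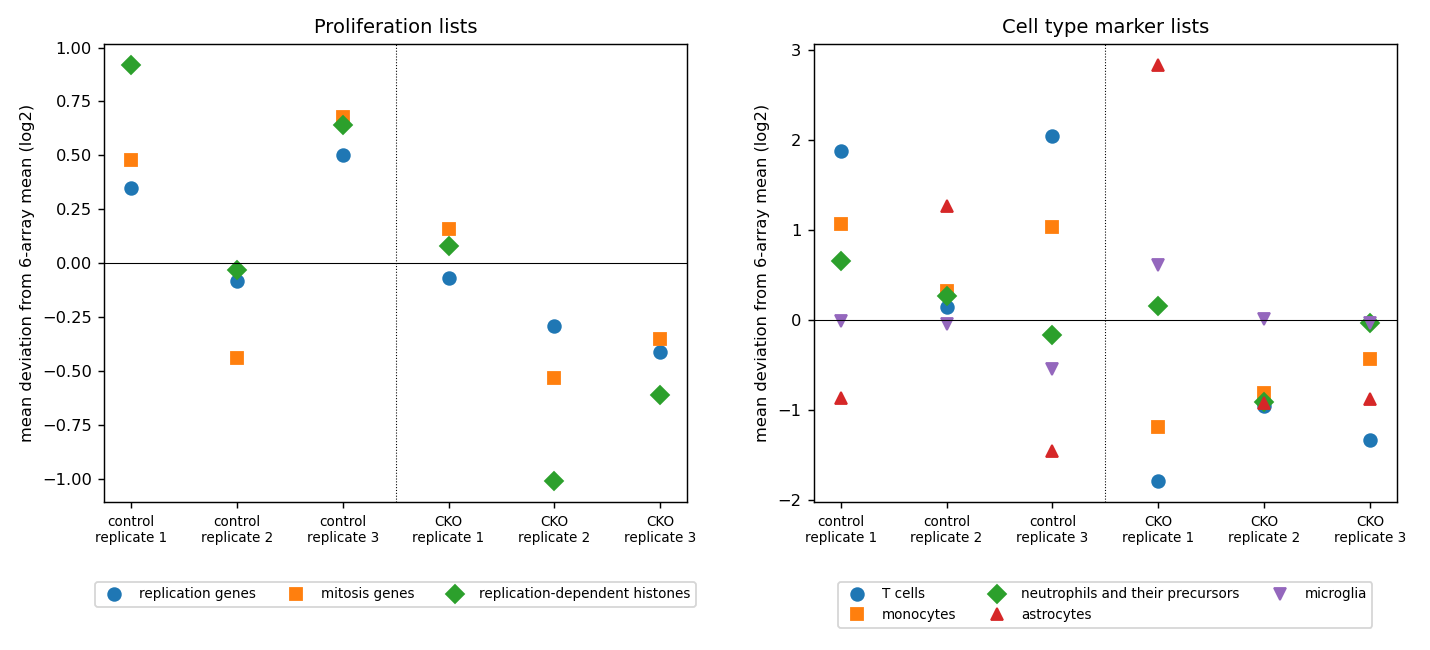
Mean deviation from the 6-array mean (log2, vertical axis) of each list on the 6 arrays: replication genes, mitosis genes and replication-dependent histones (left), and cell type markers (right). Control replicate 2 stands at -0.44 for mitosis genes and CKO replicates 2 and 3 at -1.01 and -0.61 for histones, while astrocyte markers reach 2.84 on CKO replicate 1.

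Histone genes that cells express in S phase to package new DNA had lower CKO means in nearly every case. Of 53 measured genes with symbols of the H1, H2A, H2B, H3 or H4 clusters, 52 were lower (median -1.06), and 33 reached an unadjusted p under 0.05, all lower (background 6.47% of named genes), but 0 passed over all probe sets. In 18 of the 53 every CKO array lay below every control (background 8.76%). H1f2, a linker histone, was at 11.58, 11.71 and 10.95 in controls and at 10.34, 10.06 and 9.61 in CKO (-1.41, SE 0.33, adjusted p = 0.185). H1f3 differed by -1.91 (adjusted p = 0.245) and the H3 gene H3c6 by -1.59 (adjusted p = 0.253). By array, the histone mean deviated by 0.92, -0.03 and 0.64 in controls and by 0.08, -1.01 and -0.61 in CKO. Control replicate 2 and CKO replicate 1 lay between the other controls and the other CKO arrays here. Histone genes are near-identical copies that can share probes, and 4 had values equal to those of another probe set, so they are not independent. The 33 became 9 without control replicate 1 or without CKO replicate 2, 10 without control replicate 3 and 17 without CKO replicate 3. Without CKO replicate 1 it was 45, with 21 called. The median stayed between -1.39 and -0.74 over the 6 omissions. With CKO replicates 2 and 3, the arrays of narrow range, both left out, the median was -0.48, with 48 of 53 lower and 2 at that p.

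Other replication genes were lower in CKO for 31 of 38 (median -0.26), with 1 at an unadjusted p under 0.05, Gmnn, the licensing inhibitor geminin (-0.99, adjusted p = 0.454). Fen1, the flap nuclease, and Pole2, a polymerase subunit, differed by -0.79 and -0.66. Other mitosis genes were lower for 32 of 43 (median -0.21), 4 of them at that p and 0 higher. Smc4, a condensin subunit, was at 13.01, 12.11 and 13.2 in controls and at 11.84, 10.79 and 10.93 in CKO (-1.59, SE 0.41, adjusted p = 0.225). Racgap1, needed to divide the cell body, and Tacc3, a spindle protein, differed by -0.95 and -0.69. At that p, 6.47% of all named genes were lower and 3.29% higher. None of these lists held a gene called over all probe sets.

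No gene that sets the G1 decision passed the test. Of 9 measured G1 cyclins and kinases, 6 were lower (median -0.58), 3 at an unadjusted p under 0.05: Cdk4 at -1.05, its cyclins Ccnd2 at -0.89 and Ccnd3 at -0.92 (adjusted p = 0.441, 0.383 and 0.496). Without overlap, 1 gene was lower, Ccnd2, and 1 higher, Mybl2, which encodes B-Myb (background 8.76% and 5.77%). Mybl2 differed by 0.67 (limma adjusted p = 0.568). Inhibitors of the cycle had lower CKO means in 11 of 18 cases, with 3 at that p and 0 higher. Without overlap, 5 of them were lower and 1 higher. For both lists the background at that p was 6.47% of named genes lower and 3.29% higher. Cdkn1b, which encodes the inhibitor p27, was at 11.6, 11.33 and 11.21 in controls and at 10.49, 10.26 and 10.13 in CKO (-1.09, SE 0.27, adjusted p = 0.21), without overlap. Btg1 and Btg2, antiproliferative genes, differed by -1.21 and -1.52 (adjusted p = 0.21 and 0.394). Among 12 genes of growth factor signalling in microglia, Csf1, the ligand of the receptor on which microglia depend, differed by -1.55 (adjusted p = 0.282). Csf1r, that receptor, differed by 0.03. It lay between 19.54 and 19.72, near the array maxima of 19.7 to 19.93, where a difference may not show. Csf2ra, a chain of the GM-CSF receptor, differed by -2.16 and Tgfbr1, a TGF-beta receptor, by 0.69 (adjusted p = 0.378 and 0.482). For Csf2ra, CKO replicate 1 (10.32) lay within the control range of 10.1 to 11.12. Only CKO replicates 2 and 3, at 7.64 and 7.33, lay below it.

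Markers of T cells and monocytes stood lower in CKO. Those of astrocytes had higher CKO means in 5 of 7 cases (median 0.92), with 0 at an unadjusted limma p under 0.05. Their mean deviation was 2.84 on CKO replicate 1 but -0.92 and -0.88 on CKO replicates 2 and 3. All 9 measured T cell markers were lower in CKO, with a mean deviation of 1.88, 0.15 and 2.05 on the controls and -1.79, -0.95 and -1.33 on the CKO arrays, and all 10 monocyte markers were lower, with 0.32 to 1.07 against -1.19 to -0.43. T cell markers were thus lowest on CKO replicate 1, where the mean of the mitosis genes was the highest of the CKO arrays. Among controls, the means of T cell markers and of mitosis genes were both lowest on control replicate 2 (0.15 and -0.44). Neutrophil markers deviated by -0.16 to 0.66 in controls and by 0.16, -0.91 and -0.03 in CKO. Of the 8 neutrophil genes, 6 had lower CKO means (median -0.28). Camp, Elane and Mpo differed by -1.2, -1.2 and -1.12. Elane and Mpo were at 8.77 and 8.79 on CKO replicate 2, but at 12.5 and 12.24 on CKO replicate 1 and 11.24 and 10.86 on CKO replicate 3. The other 5, S100a8, S100a9, Ngp, Ltf and Retnlg, differed by -0.36 to 0.03. The 9 microglial markers had 7 higher CKO means (median 0.35). The part of each cell type in the proliferation genes was not tested.

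The counts turned on single arrays. Without CKO replicate 1, which left the 2 CKO arrays of narrow range, 5 of 39 genes were called, all lower: E2f1, Mcm4, Rrm1, Rrm2 and Ube2c. In that setting 4.94% of probe sets were called lower and 5.01% higher, so range and group cannot be told apart there. Without control replicate 2, 15 genes reached an unadjusted p under 0.05 and 0 were called; without control replicate 3 or CKO replicate 3 it was 1, without control replicate 1 or CKO replicate 2 it was 2. With CKO replicates 2 and 3 left out, CKO replicate 1 alone against the controls gave medians of -0.26 for replication and -0.02 for mitosis genes, and 16 of 18 and 12 of 21 were lower. Leaving out each array in turn kept the sign of 16 of 18 replication and 14 of 21 mitosis genes. For these omissions no share of all named genes is given beside the counts at an unadjusted p or of kept signs. The same holds for the histone counts with arrays left out. Whether these counts exceed the background was not tested.

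**Figure D5:**
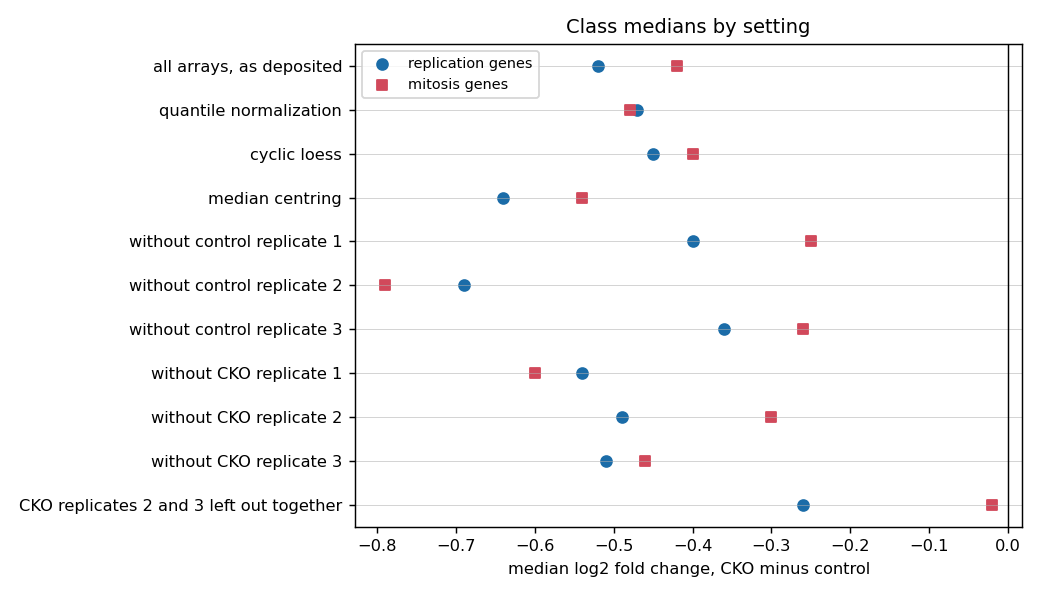
Median log2 fold change, CKO minus control, of replication genes (circles) and mitosis genes (squares) as deposited, under 3 other scalings, with each array left out in turn and with CKO replicates 2 and 3 left out together. In these settings the medians run from -0.69 to -0.26 for replication and from -0.79 to -0.02 for mitosis genes, and which class is lower changes between settings.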

How the data were processed

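Total RNA of brain microglia was made into biotinylated cDNA by a GeneChip kit, per the labels' protocols, and measured on 6 arrays. The deposited log2 values, 1 per probe set and array, were made by the authors with RMA, per the submitters' processing notes; the sources used here give no version, setting or build. Of 22206 probe sets, 19572 had 1 gene symbol, 0 several and 2634 none in the platform table; all 19572 matched RefSeq genes. No signal over background was used.

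All probe sets entered a single limma fit (version 3.58.1, R 4.3.3; lmFit and eBayes, CKO minus control, two-sided), with Benjamini-Hochberg adjusted p-values and a threshold of 0.05; the script was tested on simulated data. Exact permutation of 3 against 3 arrays has a smallest p of 0.1 and was left aside. Class medians carry no test. Members and lists were chosen with earlier results of these data known. The histone list follows the platform's current symbols, a change made after the files were seen.

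Per-array values are given for the 6 genes per class with the smallest p, up to 2 per class that went against its median, and Mcm2, Pcna, Mki67 and Top2a; of other pathway lists the 3 genes with the smallest p are named. Csf1r, Mybl2, Camp, Elane and Mpo were added after their values were seen. Alternatives were scaling, dim filters of 20% and 50%, the fit's settings, the replicate block, arrays left out, the mean of probe sets and a threshold of 0.1. Of the marker lists, those of B cells, dendritic cells, erythroid cells, oligodendrocytes and their precursors, neurons, neural progenitors and endothelial cells are given in the closing section. Whether same-numbered samples were paired is not stated in the labels.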

Additional observations from a re-analysis of the deposited data

How the results depend on the processing

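Fold changes below are log2, CKO minus control. Over all probe sets, 2 were called by limma; it was 1 after quantile normalization or with the dimmest 20% or 50% left out, 4 with trended robust eBayes, 44 at an adjusted p under 0.1 and 1694 with array weights. No member was called except with array weights (7) and in the omissions below. The 5 members at an unadjusted p under 0.05 became 3 with the dimmest 50% left out and 17 with array weights. The 47 genes of the other pathway lists became 84 with array weights. The dim filter also takes out dim members, so the 3 were counted over fewer genes. Quantile, loess and median centring left 17 of 18 replication genes and 18 or 19 of 21 mitosis genes lower and moved the median of named genes from 0.05 to 0, 0.03 and -0.07. Leaving out each array in turn gave 0 to 2209 probe sets and 0 to 5 members called, 1 to 15 members at the unadjusted p and 16 to 76 genes of the other lists. Cdc20 ranged from -0.17 to 0.69 and Top2a from -1.08 to 0.23. Mitosis minus replication medians ranged from -0.09 to 0.19, so the order of the classes did not hold. Leaving out both CKO replicates 2 and 3 gave 0 probe sets, 1 member and 10 other genes, a replication median of -0.26, and Rrm1 at 0.06, Ccne1 at -0.07, Ube2c at 0.01 and Top2a at 0.14; the spread then came from the controls. Leaving out control replicate 2 with CKO replicate 1, the arrays of high neural markers and a choice made after seeing the data, gave 2516 probe sets and 12 members called, 23 members and 87 other genes at the unadjusted p, medians of -0.8 and -1.03, a difference of -0.23, Cdc20 at -0.18 and Prc1 at -0.06. The cause of these shifts was not tested. Dim filters change no fold change, so medians were not recomputed under them.

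Same-numbered samples had deviations from their group means that correlated at -0.01, -0.23 and 0.25. Deviations within a group are tied to each other, so these values cannot tell whether samples were paired. The replicate block gave 0 probe sets called and 8 members at an unadjusted p under 0.05, with medians of -0.52 and -0.42.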

Other observations

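Marker lists not described above had these median log2 fold changes, CKO minus control, with 0 genes called by limma after adjustment. B and plasma cell markers were at -0.88 (7 of 7 lower, 2 at an unadjusted p under 0.05) and dendritic cell markers at -0.68 (6 of 6 lower, 1 at that p). The 2 measured erythroid genes were at -0.15, oligodendrocyte precursors at 0.02 (1 higher at that p), oligodendrocytes at 0.63, neurons at 0.74 (1 higher), neural progenitors at 0.08 and endothelial cells at 0.20 (2 lower). Oligodendrocyte and neuron markers were highest on CKO replicate 1 (mean deviations 1.78 and 1.75) and next on control replicate 2 (1.16 and 0.58), the arrays with high astrocyte markers. Neural progenitor markers deviated by -0.35 to 0.26.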
